A study of Mus musculus with 26 samples.

Results

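MHC class II molecules are described here through 7 genes of the 37991 in the count table: H2-Aa, H2-Ab1, H2-Eb1, H2-DMa, H2-DMb1, Cd74 and Ciita. They were matched by name in the gene annotation, and all 7 were found. The set was chosen with earlier results of these data known. Libraries came from whole rd10 retinas, in which a Pde6b mutation makes the rods degenerate, and from rods sorted from retinas of rd10 mice that carry a GFP transgene driven by the rod promoter of Nrl. Animals received daily intraperitoneal injections from postnatal day 9 to postnatal day 24, of an inhibitor or of a control solution. Of the 26 libraries, 22 were whole retinas and 4 were sorted rods.

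Each of the 5 experiments had its own controls. DZNep, an inhibitor of the methylation cycle used here against the H3K27 methyltransferase EZH2, was compared in 2 treated and 4 control retina libraries. UNC1999, an EZH2 inhibitor, was compared in 3 treated and 3 control retinas, UNC0642, an inhibitor of the H3K9 methyltransferases EHMT1 and EHMT2, in 2 and 2, and Romidepsin, a histone deacetylase inhibitor, in 3 and 3. GSK2879552, an inhibitor of the demethylase LSD1, was tested in sorted rods, 2 treated and 2 control libraries. All animals carried the rd10 mutation, so no retina without degeneration is part of these data. According to the study's methods UNC1999 was dissolved in a mixture with organic solvents and controls received saline, while elsewhere the study names the diluent as the control for this compound; which of them the control libraries received is not given in the sources used here. The labels give daily injections for all groups, whereas the study describes DZNep on alternate days later on. In the labels, the number that ends the genotype goes up from library to library in the DZNep and UNC1999 experiments, as does the compound number of 2 of the 3 UNC1999 retinas; groups were taken from the sample titles. The labels call replicates biological without saying whether animals were pooled.

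Class II molecules present peptides from the endosome to CD4 T cells. An alpha chain and a beta chain form the peptide groove. Of the members, H2-Aa encodes an alpha chain, and H2-Ab1 and H2-Eb1 each encode a beta chain. Which chains pair was not measured here. CD74, the invariant chain, blocks the groove on the way to the endosome, and H2-DM (H2-DMa with H2-DMb1) helps exchange its remnant for peptide. CIITA is the transactivator that switches these genes on, and it docks on a factor complex bound to the X and Y boxes of their promoters. In a healthy retina class II is sparse, and microglia and infiltrating leukocytes are known to raise it in degeneration and inflammation.

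RefSeq promoter windows (GRCm38.p6, 250 bases before to 50 after the start) were held for 4 of the 7 members and are shown for the 3 in which the cores of the X and Y boxes named above were found in order. Capitals mark the core of the X box (GNAACT) and the core of the Y box (ATTGG) where both occur in this order on the gene's strand. The 150 bases before the start were:
H2-Aa, chr17:34287824-34287973, minus strand: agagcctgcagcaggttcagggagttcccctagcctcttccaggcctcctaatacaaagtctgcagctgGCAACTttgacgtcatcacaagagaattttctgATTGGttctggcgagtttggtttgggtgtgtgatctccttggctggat
H2-Eb1, chr17:34305717-34305866, plus strand: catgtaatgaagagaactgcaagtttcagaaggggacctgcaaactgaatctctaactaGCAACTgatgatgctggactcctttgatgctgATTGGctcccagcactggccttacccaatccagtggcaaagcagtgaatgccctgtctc
H2-DMb1, chr17:34153041-34153190, plus strand: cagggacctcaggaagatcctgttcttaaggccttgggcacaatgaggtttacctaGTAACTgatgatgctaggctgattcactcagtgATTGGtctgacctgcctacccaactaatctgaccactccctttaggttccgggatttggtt

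The cores were 27 bases apart in H2-Aa, 26 in H2-Eb1 and 27 in H2-DMb1. Neither of the 2 windows listed for H2-DMa held the ordered pair, although the second of them held each core; the windows were searched for letters only, and no binding was measured. Among all 32851 promoter windows of that table, 42.8% held GNAACT and 37.4% held ATTGG on either strand, and 2.53% held GNAACT followed on the same strand by ATTGG within 60 bases. The motifs do not overlap each other and were picked after the sequences were seen.

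The 5 H2 genes lie within 181.0 kb on chromosome 17, between positions 34272127 and 34453144 of the build NCBIM37 used for counting. H2-DMa (34272127 to 34276046, plus strand) and H2-DMb1 (34290017 to 34297168, plus) come first, followed by H2-Ab1 (34400154 to 34406363, plus), H2-Aa (34406276 to 34424772, minus) and H2-Eb1 (34442828 to 34453144, plus). Ciita lies on chromosome 16, from 10480237 to 10527657 on the plus strand, and Cd74 on chromosome 18, from 60963502 to 60972300 on the plus strand. Values are reads over the exons of protein-coding genes. H2-Aa and H2-Ab1 overlap by 88 bases on opposite strands, and whether reads were counted by strand is not given in the sources used here, so a small part of the reads of that pair cannot be told apart. Another annotated gene on the same strand overlaps Ciita by 2455 bases and held 5 reads over all libraries. A further one overlaps Cd74 by 88 bases on its strand and held 0. Whether reads over these shared bases were lost from Ciita or Cd74 was not tested.

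Levels are given as CPM, reads of a gene relative to the library's total, scaled by normalization factors computed over all 22 retinas, or over the 4 rod libraries on their own. Retina libraries held 13732959 to 36354094 counted reads, and rod libraries 7289460 to 19864491. A count of 3, taken as the floor, equals 0.0897 to 0.229 CPM in retinas and 0.156 to 0.401 CPM in rods. As a whole retina was extracted, fewer immune cells and less RNA per cell cannot be told apart.

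Per kilobase of exon, Cd74 was the most abundant member in the 12 control retinas, at 15.1 ± 10.7 CPM per kb (SD, n = 12). H2-Ab1 followed at 7.3 ± 5.18 CPM per kb, H2-Eb1 at 6.63 ± 4.48, H2-Aa at 4.87 ± 3.45, H2-DMa at 4.57 ± 1.02 and H2-DMb1 at 1.40 ± 0.638. Ciita was at 0.122 ± 0.111 CPM per kb. The neighbours H2-Ab1, H2-Eb1, H2-Aa and H2-DMa in this order differed by less than their SD between libraries. That SD is not the error of the order, as all members were measured in the same libraries. The order within libraries was not tested.

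Control retinas differed widely among themselves. Over the 12 libraries, Cd74 ran from 3.34 to 54.1 CPM, with a coefficient of variation of 70.7%. H2-Aa ran from 1.70 to 24 CPM (70.9%), H2-Ab1 from 3.09 to 31.8 CPM (70.9%) and H2-Eb1 from 1.90 to 18.2 CPM (67.6%). H2-DMa was the steadiest member, from 4.99 to 11.8 CPM (22.3%), H2-DMb1 lay between at 0.892 to 3.49 CPM (45.7%), and Ciita ran from 0.0998 to 2.18 CPM (90.8%). Control replicate 1 of the UNC0642 experiment was highest of the 12 for all 7 members, and control replicate 3 of the UNC1999 experiment was lowest for 6 of them.

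Within an experiment the same control library was mostly the highest or the lowest for every member. In the DZNep experiment control replicate 1 was highest for 7 of 7 members. In the UNC0642 experiment replicate 1 was higher than replicate 2 for 7 of 7. In the UNC1999 experiment control replicate 3 was lowest for 7 of 7. Across the 12 control retinas Pearson's r of log2 CPM ran from 0.81 to 0.99 over the 21 pairs of members, with a median of 0.89. These libraries also share differences in immune markers, as given below for Ptprc and Cx3cr1.

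**Figure D1:**
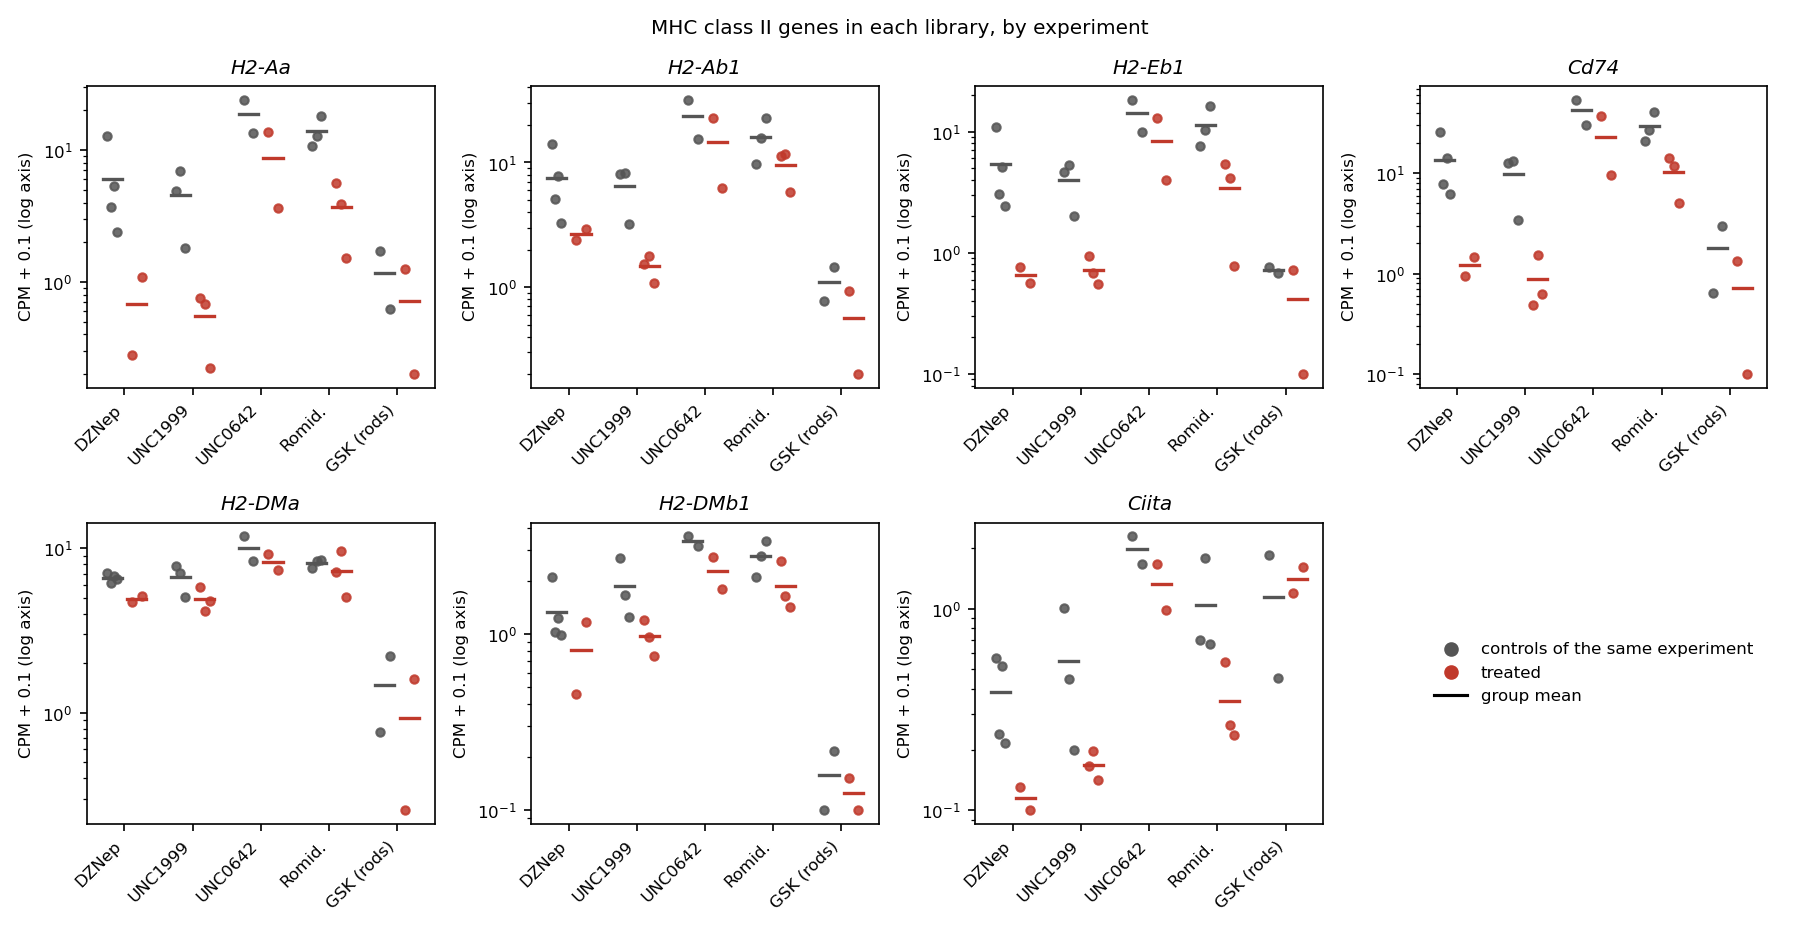
Level of each member in every library (CPM + 0.1, log axis), grouped by experiment, with controls in grey, treated libraries in red and a bar at the group mean. The 2 DZNep and 3 UNC1999 retinas lie below all controls of their experiment for Cd74, H2-Aa, H2-Ab1 and H2-Eb1. Rod libraries were normalized separately.

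In DZNep-treated retinas 3 members were called, all lower: Cd74, H2-Aa and H2-Eb1. A call needed an adjusted p under 0.05 and more than a 2-fold change in the quasi-likelihood test of edgeR. Of all 16477 genes tested, 0.686% were called lower. Ciita was too low to be tested, and the 6 tested members had a median log2 fold change of -2.36, against -0.00057 over all genes tested. The likelihood ratio test called 4 members and DESeq2 3. Without DZNep replicate 1, which leaves 1 treated library, no member was called, while the log2 fold changes of Cd74, H2-Eb1 and H2-Aa were -3.29, -3.51 and -2.58. Without DZNep replicate 2 there were 2 calls.

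Cd74, whose product escorts the newly made dimers, stood at 25.8, 7.79, 14.2 and 6.17 CPM in the 4 controls and at 0.837 and 1.37 CPM in the 2 DZNep retinas. Every treated value was below every control value, although the controls themselves spanned a wide range. Its log2 fold change was -3.73 ± 0.71 (SE), with an adjusted p of 0.00716 by edgeR's quasi-likelihood test.

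Of the genes of alpha and beta chains, 2 of 3 passed as well. H2-Aa, the alpha chain, had 12.8, 3.59, 5.25 and 2.29 CPM in controls and 0.179 and 0.991 CPM after DZNep (log2 fold change -3.74 ± 0.92, adjusted p = 0.0210, edgeR). H2-Eb1, a beta chain, had 10.8, 2.94, 5.02 and 2.33 CPM in controls and 0.658 and 0.457 CPM after DZNep (-3.14 ± 0.73, adjusted p = 0.0164, edgeR). H2-Ab1, the other beta chain, had 13.9, 4.95, 7.74 and 3.18 CPM against 2.27 and 2.82 CPM, and its log2 fold change of -1.58 ± 0.55 did not pass (adjusted p = 0.0689, edgeR), although it did with the likelihood ratio test (adjusted p = 0.0198).

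Fold changes of the peptide editor H2-DM were smaller, a difference between genes that was not tested. H2-DMa was at 7.03, 6.07, 6.70 and 6.40 CPM in controls and at 4.63 and 5.03 CPM after DZNep; this narrow spread let a log2 fold change of -0.46 ± 0.13 pass the p threshold (adjusted p = 0.0317, edgeR) without reaching 2-fold. H2-DMb1, its partner, was at 2.00, 0.933, 1.13 and 0.892 CPM against 0.359 and 1.07 CPM, with overlapping groups (-1.0 ± 0.52, adjusted p = 0.195, edgeR). At an adjusted p under 0.05 alone, 4 members were lower, against 9.72% of all genes tested.

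Ciita gave 10, 3, 9 and 3 reads in the controls and 1 and 0 in the DZNep retinas. That is 25 against 1 in sum, a scaled ratio of 0.0773 with an exact 95% interval of 0.00188 to 0.472 that covers counting error only. Besides Ciita, 5 of the 6 tested members had all treated values below all controls, as had 20.6% of all genes tested.

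After UNC1999 the 6 tested members had lower fitted values, but no member was called by edgeR's quasi-likelihood test. Of 15775 genes tested, 0.0697% were called lower. At an unadjusted p under 0.05, 5 of the 6 tested members were lower, as were 11.9% of all genes. The likelihood ratio test and DESeq2 each called 4 members, so the count for this compound depended on the test.

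Cd74 had 12.7, 13.1 and 3.34 CPM in the UNC1999 controls and 0.390, 1.44 and 0.531 CPM after treatment, and all treated values were below the controls. Its log2 fold change was -3.59 ± 0.63, with an adjusted p of 0.0533 (edgeR). H2-Aa had 4.77, 6.87 and 1.70 CPM against 0.650, 0.577 and 0.123 CPM (-3.39 ± 0.65, adjusted p = 0.0533, edgeR).

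H2-Eb1 had 4.51, 5.22 and 1.90 CPM in controls and 0.845, 0.577 and 0.449 CPM after UNC1999 (-2.68 ± 0.44, adjusted p = 0.0501, edgeR). H2-Ab1 had 8.01, 8.18 and 3.09 CPM against 1.43, 1.68 and 0.980 CPM (-2.25 ± 0.41, adjusted p = 0.0533, edgeR). Control replicate 3 was the lowest control for both, and without it 5 members were called.

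For the H2-DM pair the groups lay closer. H2-DMb1 had 2.60, 1.57 and 1.15 CPM against 1.11, 0.865 and 0.653 CPM (-1.04 ± 0.37, adjusted p = 0.142, edgeR). H2-DMa had 7.74, 6.95 and 4.99 CPM against 5.72, 4.04 and 4.70 CPM, with overlap (-0.46 ± 0.21, adjusted p = 0.237, edgeR). Ciita, again untested, had 17, 9 and 2 reads against 1, 2 and 1, a scaled ratio of 0.153 with an exact 95% interval of 0.0390 to 0.437 for counting error only. Of the 6 tested members all but H2-DMa had every treated value below every control, as had 12.9% of all genes tested. For Ciita the lowest control and the highest treated library both held 2 reads, under the floor, so that its groups cannot be separated.

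After Romidepsin all 7 members were tested and had lower fitted values, and no member was called by edgeR's quasi-likelihood test, where 0.156% of the 16049 genes tested were called lower. At an unadjusted p under 0.05, 4 of 7 members were lower, against 9.46% of all genes. The likelihood ratio test called 4 and DESeq2 2, and without Romidepsin replicate 1 the quasi-likelihood test called 1.

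H2-Aa had 10.6, 12.7 and 18.2 CPM in the Romidepsin controls and 5.56, 3.8 and 1.41 CPM after treatment, without overlap (-1.97 ± 0.42, adjusted p = 0.0656, edgeR). Cd74 had 21.0, 27.1 and 40.3 CPM against 14.2, 11.7 and 5.00 CPM (-1.54 ± 0.37, adjusted p = 0.0799, edgeR). Treated replicate 3 was the lowest library for both genes.

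Ciita was detected well enough to be tested here, at 0.602, 1.67 and 0.565 CPM in controls and 0.441, 0.165 and 0.136 CPM after Romidepsin (-1.96 ± 0.62, adjusted p = 0.135, edgeR). H2-Eb1 had 7.43, 10.2 and 16.3 CPM against 5.29, 4.07 and 0.682 CPM (-1.79 ± 0.57, adjusted p = 0.137, edgeR). These 4 genes were those with all treated values below all controls, as were 12.1% of all genes tested. H2-Ab1, H2-DMb1 and H2-DMa had overlapping groups, with log2 fold changes of -0.78 ± 0.35, -0.60 ± 0.31 and -0.18 ± 0.23.

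The UNC0642 controls had the highest group mean of each member among the control retinas, although control replicate 2 was below Romidepsin control replicate 3 for Cd74 (30.5 against 40.3 CPM). Cd74 was at 54.1 and 30.5 CPM in the controls and at 36.7 and 9.45 CPM in treated retinas, so that the groups overlapped (-0.85 ± 0.55, adjusted p = 0.473, edgeR). Ciita was at 2.18 and 1.56 CPM in controls and 1.56 and 0.884 CPM in treated retinas (-0.60 ± 0.37, adjusted p = 0.457, edgeR). Treated replicate 2 was below treated replicate 1 for every member.

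The log2 fold changes of the 7 members after UNC0642 ran from -1.10 for H2-Aa to -0.29 for H2-DMa. They rested on single libraries, since without UNC0642 replicate 1 the values of H2-Aa, Cd74 and H2-Ab1 were -2.41, -2.17 and -1.96, and without UNC0642 replicate 2 they were -0.46, -0.21 and -0.064. No member was called and none reached an unadjusted p under 0.05 in edgeR's quasi-likelihood test, and the likelihood ratio test called 0 as well. DESeq2 gave no adjusted p for any member in this experiment, so it made no call either way. The share of all 16321 genes called lower was 0%, and 6.8% had an unadjusted p under 0.05 and a lower value. With the 9 controls of library series G-981, to which this, the Romidepsin and the DZNep experiments belong, H2-Ab1, H2-DMa, H2-DMb1 and Ciita turned to positive log2 fold changes of 0.026 to 0.52. Against the controls of the experiment itself, only H2-DMb1, at 3.49 and 3.07 CPM in controls and 2.65 and 1.70 CPM after treatment, had groups that did not overlap, a pattern that 24.8% of all genes tested showed in this direction.

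**Figure D2:**
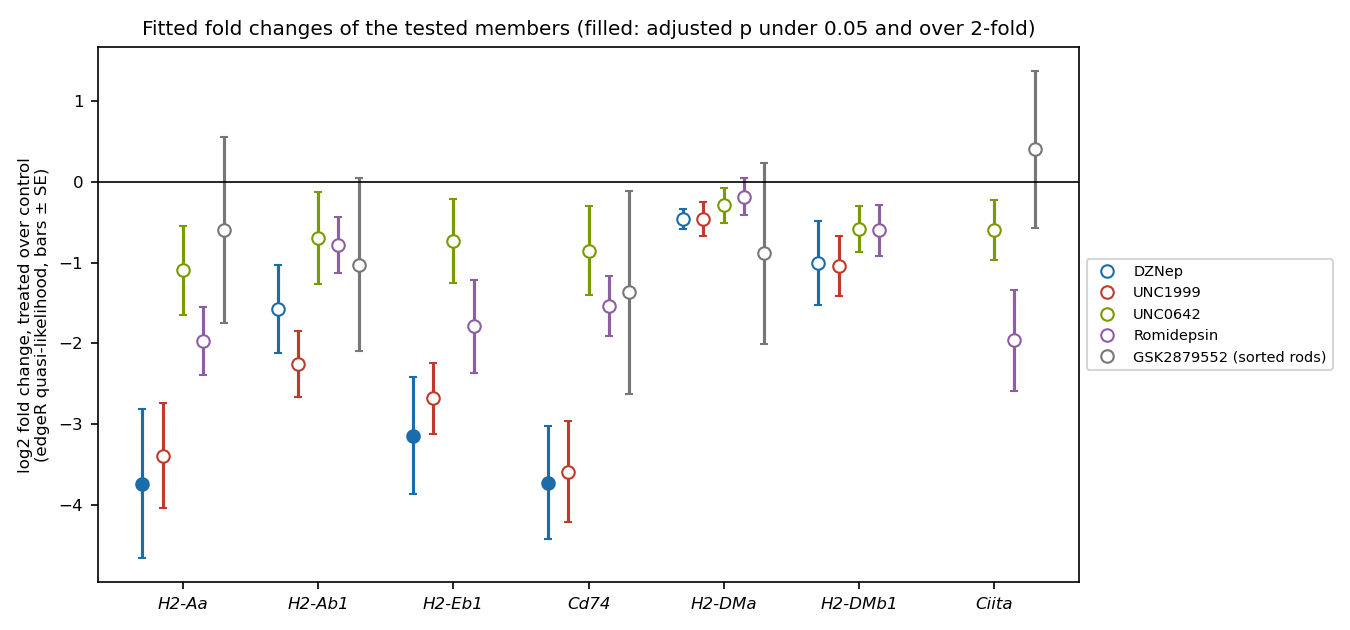
Log2 fold change of each tested member (treated over the controls of the same experiment, edgeR, bars ± SE) with filled points for called members. The 3 filled points are Cd74, H2-Aa and H2-Eb1 after DZNep, and H2-DMa lies nearest to 0 in the 4 whole-retina experiments.

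Differences between treatments were tested in a fit of all 22 retinas. None of the 7 members passed in any of the 6 pairs of treatments, with adjusted p-values between 0.229 and 1.00 in edgeR's quasi-likelihood test, and the likelihood ratio test also called 0. The largest difference was that of Cd74 between DZNep and UNC0642, -2.85 ± 1.08 on the log2 scale (adjusted p = 0.273). At an unadjusted p under 0.05 there were 2 members for DZNep against UNC0642, 1 for DZNep against Romidepsin, 1 for UNC1999 against UNC0642 and 0 for the other pairs. Of all 17274 genes, 13.1%, 13.8% and 12% had an unadjusted p under 0.05 in those 3 pairs, and 9.45%, 21.8% and 12.6% in DZNep against UNC1999, UNC1999 against Romidepsin and UNC0642 against Romidepsin. At the adjusted threshold with more than a 2-fold difference, the share of all genes called was 0.00579% for DZNep against UNC1999, 0.0232% for DZNep against UNC0642, 0.237% for DZNep against Romidepsin, 0.00579% for UNC1999 against UNC0642, 2.4% for UNC1999 against Romidepsin and 0.0174% for UNC0642 against Romidepsin. DZNep and UNC1999 differed by -0.12 ± 1.24 for Cd74, an error too wide to show that they act alike.

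In sorted rods the members other than Ciita had 0 to 49 reads per library. Cd74 gave 4 and 49 reads in control rods and 24 and 0 after GSK2879552, and the 0 allows up to 0.302 CPM in that library. H2-Aa gave 12 and 9 reads against 22 and 1, H2-Ab1 5 and 23 against 16 and 1, and H2-DMa 5 and 36 against 3 and 15. The control and treated libraries overlapped for all members.

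Of the 5 members tested in rods, none was called and none had an unadjusted p under 0.05 in edgeR's quasi-likelihood test. The likelihood ratio test called none either. DESeq2 gave no adjusted p for these members, so it made no call either way. The share of all 14478 genes called lower was 0%, and 2.13% were lower at an unadjusted p under 0.05. Their log2 fold changes ran from -1.37 ± 1.25 for Cd74 to 0.40 ± 0.97 for Ciita. H2-DMb1, with 0, 2, 1 and 0 reads, was at or under the floor in all 4 libraries.

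Ciita gave 13 and 6 reads in control rods and 21 and 15 in treated rods, or 1.74, 0.351, 1.09 and 1.51 CPM. In treated replicate 2 its 15 reads stood beside 15 of H2-DMa, 1 each of H2-Aa and H2-Ab1 and 0 of Cd74, H2-Eb1 and H2-DMb1. In control replicate 2 the order was the opposite, with 6 reads of Ciita beside 49 of Cd74, 36 of H2-DMa, 23 of H2-Ab1, 10 of H2-Eb1, 9 of H2-Aa and 2 of H2-DMb1. In the retinas of the UNC0642 controls, at 2.18 and 1.56 CPM of Ciita, Cd74 was at 54.1 and 30.5 CPM. Rods and retinas were normalized separately and, according to the study's methods, prepared with different kits (the labels give the same kit for all), so these levels are given side by side only.

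Immune markers were also lower in fitted value in the whole retinas. Ptprc, the pan-leukocyte antigen CD45, was lower after DZNep, at 4.63 ± 1.58 CPM in 4 controls and 2.02 ± 0.155 CPM in 2 treated retinas (log2 fold change -1.21 ± 0.32, adjusted p = 0.0259, edgeR). After UNC1999 it was 6.94 ± 3.59 CPM against 1.62 ± 0.640 CPM (-2.08 ± 0.46, adjusted p = 0.0611, edgeR). In DZNep retinas Cd74 thus had a log2 fold change of -3.73 beside -1.21 for Ptprc, a pair of values whose difference was not tested.

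The 10 microglia markers summed to 212 to 399 CPM in the DZNep controls and 185 to 199 CPM after DZNep, and 9 of the 10 had a lower fitted value, none at an adjusted p under 0.05. In the UNC1999 experiment they summed to 229 to 354 CPM in controls and 142 to 179 CPM after treatment, with 9 of 10 lower and none at an adjusted p under 0.05. For UNC0642 the sums were 525 to 686 CPM against 336 to 457 CPM, and for Romidepsin 374 to 600 CPM against 319 to 480 CPM, with 10 of 10 lower in each and none at an adjusted p under 0.05. Rod markers moved the other way after DZNep. All 8 passed as higher at an adjusted p under 0.05 (edgeR), 7 of them by more than 2-fold. Of all genes tested there, 12.9% passed as higher. Rod sums were 49841 and 51191 CPM against 15986 to 27197 CPM in controls. After UNC1999 all 8 had higher fitted values and 0 passed. Of the retinal pigment epithelium markers, 4 of 6 passed as higher after DZNep (sums of 189 and 223 CPM against 47.9 to 140 CPM). After UNC1999 5 of 6 did (349 to 401 CPM against 105 to 120 CPM), where 0.501% of all genes passed as higher. After UNC0642 5 of 6 had higher fitted values and 0 passed. Romidepsin went the other way, with 5 of 6 lower in fitted value and 0 passing (43.2 to 54.3 CPM against 68.7 to 80.8 CPM). Müller glia markers were lower after DZNep, 4 of 4 passing and 0 by more than 2-fold (3733 and 4086 CPM against 4639 to 5339 CPM). Of all genes tested there, 9.72% passed as lower. After Romidepsin these markers summed to 2611 to 3336 CPM against 3950 to 5112 CPM in controls, and 0 of 4 passed in edgeR's test. After UNC1999 2 had lower and 2 higher fitted values, and after UNC0642 3 lower and 1 higher, with 0 passing in either. The part of cell composition in the class II values was not tested.

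Markers of lymphocytes and dendritic cells were at low levels. The 6 B cell markers summed to at most 8.83 CPM in any retina and the 9 T and NK cell markers to at most 6.78 CPM. The 8 markers of dendritic cells summed to 12.3 to 27.6 CPM, with Xcr1, Clec9a and Ccr7 at 0 in the DZNep retinas. Itgax, a dendritic cell and myeloid integrin, was lower after DZNep (log2 fold change -1.73 ± 0.46, adjusted p = 0.0264, edgeR). Of the 3 dendritic cell markers tested there, 2 had lower and 1 a higher fitted value.

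The 8 monocyte and macrophage markers summed to 43.6 to 85.6 CPM in the DZNep controls and 29.5 to 32.5 CPM after DZNep, and to 46.9 to 103 CPM against 27.9 to 35.4 CPM in the UNC1999 experiment. For Romidepsin the sums were 72.9 to 96.9 CPM against 41.1 to 57.9 CPM, and for UNC0642 136 to 183 CPM against 60.4 to 145 CPM. Lyz2, the lysozyme of myeloid cells, passed as lower after DZNep (-2.09 ± 0.48, adjusted p = 0.0157, edgeR) and after UNC1999 (-2.65 ± 0.39, adjusted p = 0.0408, edgeR), as the only one of these markers. Of all genes, 9.72% and 0.101% did. Of the 5 markers tested after DZNep, 4 had lower and 1 a higher fitted value, with a median log2 fold change of -0.095. After UNC1999 all 3 tested were lower in fitted value, after UNC0642 all 7 tested, and after Romidepsin 6 were lower and 2 higher. The part of these cells in the class II values was not tested. In the sorted rods microglia markers summed to 60.2 to 75.2 CPM in controls and 64.0 to 67.4 CPM after treatment. Of them, Cx3cr1 was at 0.935 and 1.40 CPM in controls and 0.260 and 0.705 CPM after treatment. It was at 15.8 to 47.2 CPM in the control retinas, normalized separately. The rod sum thus rested mostly on other markers of the list and does not measure microglia. Ptprc was at 0 in 2 of the 4 libraries. The part of immune cells in the class II reads of rods was not tested.

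**Figure D3:**
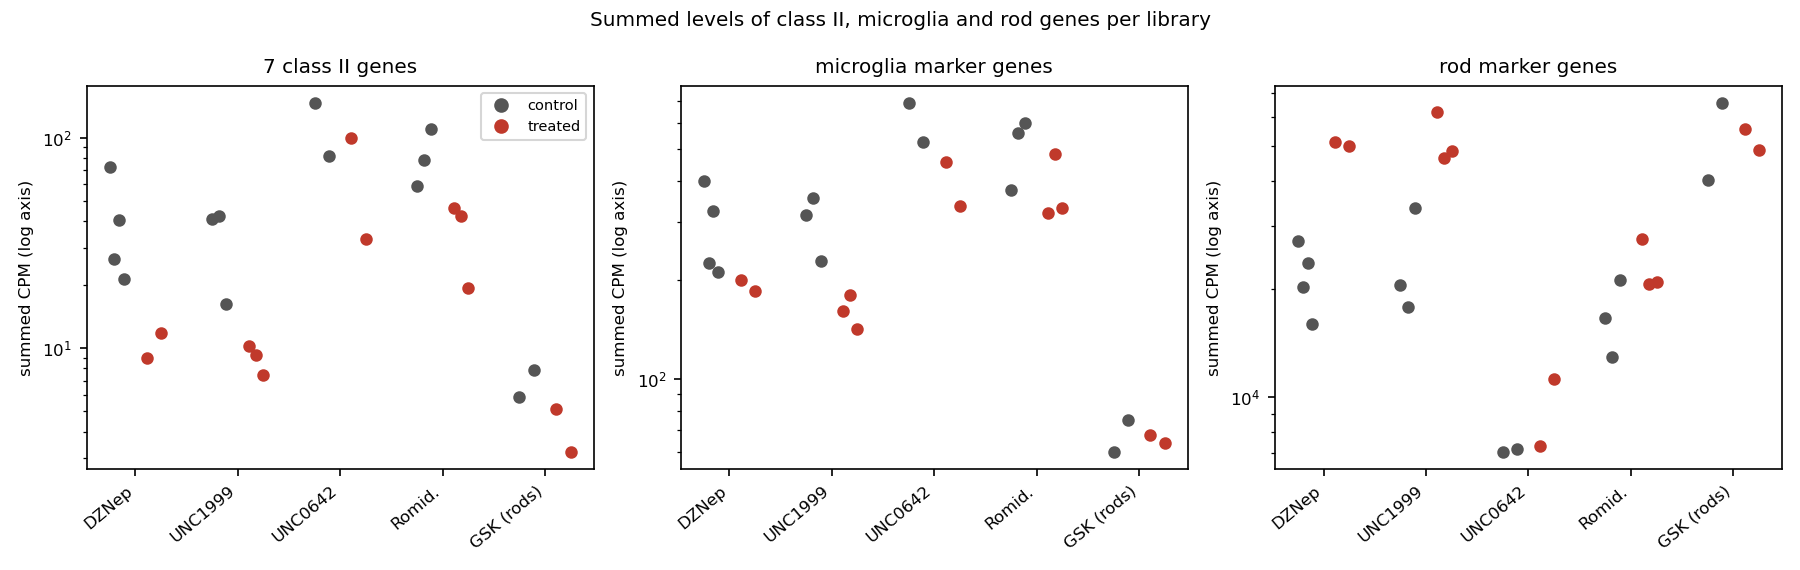
Summed CPM (log axis) of the 7 class II genes, of the 10 microglia markers and of the 8 rod markers in each library, controls in grey and treated in red. After DZNep and UNC1999 the class II sum and the microglia sum lie below all controls of the experiment, and the rod sum lies above them. The class II sum also lies below all controls after Romidepsin and in sorted rods. For UNC0642 the microglia sum lies below and the rod sum above all controls.

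Cd74 followed Ciita and immune genes from library to library. Over the 12 control retinas, log2 CPM of Cd74 gave Pearson's r of 0.85 with Ciita, 0.88 with Ptprc and 0.80 with Cx3cr1, the microglial fractalkine receptor. Spearman's rho was 0.82, 0.82 and 0.81. Adjusted over a family of 4 relations, of which these 3 are reported, the two-sided permutation p-values (100000 resamples) of r were 0.00102, 0.00092 and 0.0025 in the same order, and that of rho was 0.00199 for each.

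The 12 controls came from 4 experiments, which the permutations did not take into account. After each gene was centred on its experiment's control mean, r was 0.73 with Ciita, 0.93 with Ptprc and 0.90 with Cx3cr1. No p-value is given for the centred values. Centring ties the libraries of an experiment to each other, which the permutations ignored. Without the 2 libraries farthest from the median of Cd74, r was 0.75, 0.79 and 0.83, with adjusted permutation p-values of 0.0175, 0.0126 and 0.00996. The relations thus did not rest on those 2 libraries. Single experiments hold 2 to 4 controls, too few for a value of their own. The low end of Ciita lies at the floor, with 3 reads each in DZNep control replicates 2 and 4 and 2 reads in UNC1999 control replicate 3.

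**Figure D4:**
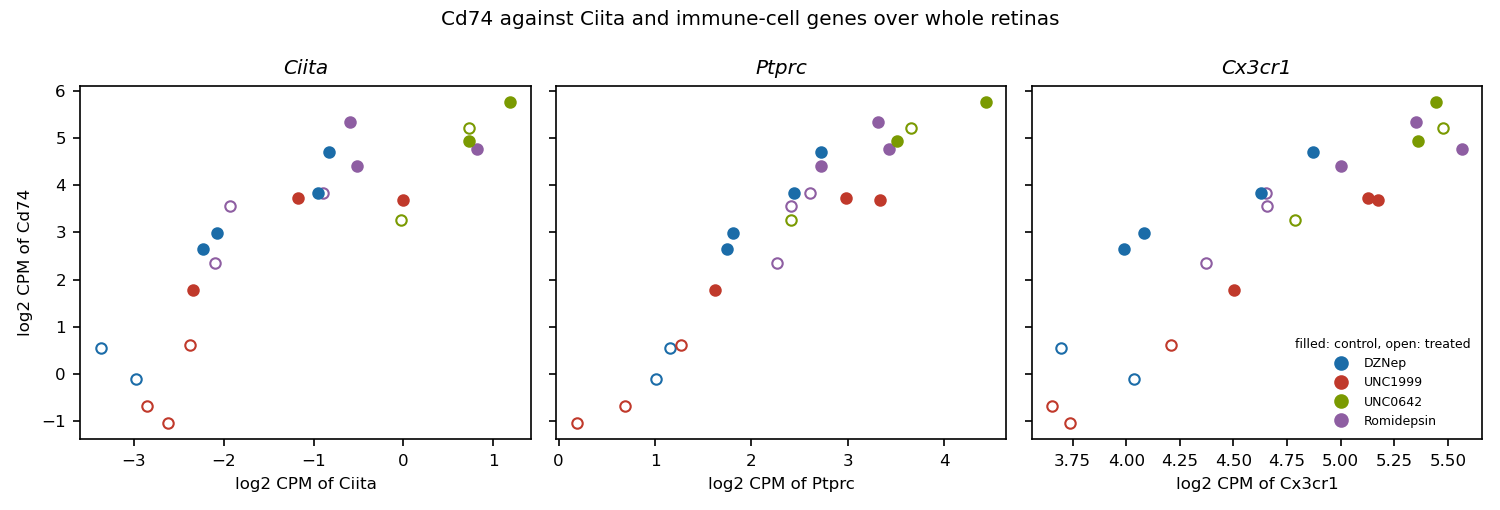
Log2 CPM of Cd74 (y axis) against that of Ciita, Ptprc and Cx3cr1 (x axes) in the 22 retinas, colored by experiment, with filled points for controls and open points for treated retinas. Control retinas rise together along each axis (r from 0.80 to 0.88 over 12 controls), and the DZNep and UNC1999 retinas lie at the low end.

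Of 14936 other genes with a mean of at least 1 CPM in the control retinas, those most like the mean log2 CPM of the 7 members over the 12 libraries were Laptm5 (r = 0.98), Mpeg1 (0.98), Tyrobp (0.98), Tlr9 (0.98) and C1qb (0.97). Mpeg1 encodes a pore-forming protein of macrophages, Tyrobp an adaptor of myeloid receptors and C1qb a chain of complement C1q. Centred on the experiment, their r was 0.98, 0.96, 0.98, 0.94 and 0.93.

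After DZNep the rest of the antigen presentation pathway did not move as a block, with 15 tested genes lower and 10 higher in fitted value. Of its 30 listed genes, 25 were tested after DZNep, and 6 were higher and 0 lower at an adjusted p under 0.05, a threshold that 12.9% of all genes passed as higher. Those named are the 4 with the smallest p. March1, a ubiquitin ligase that removes class II from the surface, was at 71.0, 54.4, 63.5 and 48.4 CPM in controls and 113 and 109 CPM after DZNep (log2 fold change 0.89 ± 0.12, adjusted p = 0.00177, edgeR). Nfya, a subunit of the factor that binds the Y box shown above, was at 49.99, 45.1, 49.2 and 44.6 CPM against 65.9 and 60.3 CPM (0.41 ± 0.07, adjusted p = 0.00328, edgeR). All treated values of both genes were above the controls.

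Lgmn, the lysosomal protease legumain, rose by 0.44 ± 0.09 on the log2 scale after DZNep (adjusted p = 0.00787, edgeR) and Creb1, a factor that binds the promoter region of class II genes, by 0.26 ± 0.06 (adjusted p = 0.0150, edgeR). March1 was also abundant in sorted rods, at 192 to 246 CPM. In the UNC1999 and UNC0642 retinas and in rods, 0 of the 25, 27 and 23 tested pathway genes passed an adjusted p under 0.05 in edgeR's quasi-likelihood test. Among all genes that threshold was passed by 0.101% as lower and 0.501% as higher after UNC1999, and by 0% in either direction after UNC0642 and in rods. Of the 25 tested after UNC1999, 19 had lower and 6 higher fitted values. At an unadjusted p under 0.05 (edgeR), 9 of them were lower, against 11.9% of all genes. For UNC0642 17 had lower and 10 higher fitted values, and in rods 16 lower and 7 higher.

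After Romidepsin 1 of 26 tested pathway genes was lower and 0 were higher at an adjusted p under 0.05, against 0.174% of all genes as lower and 0.573% as higher. It was Ctss, cathepsin S, the protease that trims the invariant chain, at 93.0, 99.9 and 135 CPM in controls and 55.2, 65.3 and 57.8 CPM after treatment (-0.89 ± 0.16, adjusted p = 0.0493, edgeR). The groups did not overlap. Ctss was also below all controls after UNC1999, at 61.9, 80.1 and 39.0 CPM against 25.8, 33.6 and 26.0 CPM. The same held after DZNep, at 46.5 to 96.8 CPM in controls and 42.3 and 35.6 CPM in treated retinas, without passing. After UNC0642 the groups of Ctss overlapped. The 4 remaining class II subunits (H2-Eb2, H2-DMb2, H2-Oa and H2-Ob) summed to at most 2.30 CPM in any retina.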

How the data were processed

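RNA-seq libraries of 22 retinas and 4 preparations of sorted rods were analysed. The authors used BBDuk for trimming, HISAT2 2.2.1 for alignment to NCBIM37 (mm9) and HTSeq 0.11.2 for counting on Ensembl genes. The deposited values are raw counts per gene, without normalization; 37205 of 37991 genes had a GENCODE M1 symbol on the same build, and of several entries with the same symbol the one with the highest mean count was kept. Each treatment was compared with its own controls in edgeR 4.0.16 (R 4.3.3) with filterByExpr, TMM and the quasi-likelihood F test, where the study used a likelihood ratio test, and p-values were adjusted over all genes tested. Log2 CPM used a prior count of 2. Members and gene lists were chosen with earlier results of these data known. Named were the 7 members, at most 4 pathway genes per comparison with the smallest p at an adjusted p under 0.05, and the 5 genes most like the members. No 2 of 23 replicate pairs were copies (chi-square per gene at least 3.72). The tests were tested on simulated data. Alternatives were RLE normalization, DESeq2 1.42.0, the likelihood ratio test, other filters, no fold threshold, a replicate block, all retinas in one fit, the 9 controls of library series G-981 together, another prior count and leaving out each library; leaving out 2 libraries from the correlations was chosen after seeing the data. The fourth relation of the correlation family is not reported here. P-values measure the spread between these libraries. Positions of promoters are those of GRCm38.p6 and were not converted.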

Additional observations from a re-analysis of the deposited data

How the results depend on the processing

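The number of members called depended on the processing. After DZNep it was 3 and became 5 without the filter on low counts and 4 with the likelihood ratio test or no fold threshold. After UNC1999 it was 0 and became 4 with the likelihood ratio test, DESeq2, no filter or all 22 retinas in one fit, and 1 with RLE normalization. After Romidepsin it was 0 and became 4 with the likelihood ratio test and 2 with DESeq2, no filter or all 22 retinas. After UNC0642 it was 0 and became 1 without the filter. Leaving out single libraries gave 0 to 4 members after DZNep (0 without DZNep replicate 1, where the lone treated retina is assumed to vary like the controls), 0 to 5 after UNC1999 (5 without control replicate 3), 0 to 1 after Romidepsin (1 without Romidepsin replicate 1), and 0 to 0 after UNC0642 and in rods. Whether replicate numbers pair the samples is not known. Correlations of deviations between libraries of the same number ran from -0.28 to 0.23, and with so few libraries per group they cannot show it. With the replicate block 4, 1, 2, 0 and 0 members were called after DZNep, UNC1999, UNC0642, Romidepsin and in rods. The 2 after UNC0642 were H2-Aa and Cd74. Directions held for DZNep and UNC1999 under every alternative run. With the 9 pooled G-981 controls, log2 fold changes after UNC0642 turned to 0.070 (H2-Ab1), 0.080 (H2-DMa), 0.026 (H2-DMb1) and 0.52 (Ciita). Leaving out single libraries, H2-DMa after Romidepsin ran from -0.42 to 0.031 (positive without Romidepsin replicate 3). In rods, H2-Aa ran from -3.20 to 0.32 (positive without control replicate 1 and, at 0.17, without GSK2879552 replicate 2), H2-DMa from -3.13 to 0.23 (positive without control replicate 2 and, at 0.069, without GSK2879552 replicate 1), Cd74 from -7.36 to 0.32 (positive without control replicate 2) and Ciita from -0.43 (without control replicate 2) to 1.85. The cause of these changes was not tested. The 3 reported correlations of Cd74 kept their side of the threshold under the alternatives given a p-value, which leaves out the centred values. The 6 tests of effect differences did so under all alternatives run. Few reads of Ciita and of all members in rods limit those values.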
